A study of Mus musculus with 24 samples.

Results

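The 9 genes described here make or fill the red blood cell: the beta-like globin genes Hbb-y, Hbb-bh1, Hbb-b1 and Hbb-b2, the alpha-like globin genes Hba-x, Hba-a1 and Hba-a2, the erythroid enzyme gene Alas2 and the red cell anion exchanger gene Slc4a1. They were chosen by measured values of these same libraries, as genes of the red cell with a higher RPKM (tags per kb of merged exon, scaled to the unique tags of the library) in fetal head than in CCE cells. In the counts made here this held for 8 of them in the RiboMinus libraries, where Hba-a2 had 0 tags in both tissues. They are 9 of the 22380 protein-coding genes counted. Their fetal head to CCE difference is therefore given as a description with no test. The same holds where their libraries of the 2 tissues are said not to overlap. The choice favours such genes, and the share of all genes without overlap was not counted.

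Total RNA of mouse fetal heads (FH) dissected at 14.5 dpc from FVB/N embryos, and of CCE cells, a 129/SvEv embryonic stem cell line kept without feeder cells and differentiated for 5 days by withdrawal of LIF and 0.266 µM retinoic acid, was depleted of ribosomal RNA and sequenced without strand. The RiboMinus kit gave 7 cDNA preparations (4 of CCE, 3 of FH), each sequenced at Vienna-IMP and at Nijmegen as 14 libraries of 36 nt reads, and the Ribo-Zero kit, used on other RNA, gave 1 library of 51 nt reads per tissue at Vienna-CeMM. RNA was hydrolysed before cDNA synthesis (FH1h and FH2h in FH) or the cDNA was sheared (FH1s), and FH2h went through 2 rounds of depletion where every other preparation had 1. CCE is a single cell line and its preparations are technical replicates, no separate embryos are stated for the FH preparations, and libraries of 1 cDNA at both locations are technical, so the p-values below measure the spread between these libraries. By the methods, sheared and hydrolysed preparations of 1 number came from the same depleted RNA, so the 3 FH preparations stand for 2 depletions. The mothers of the embryos were wild type, and the labels name no genetic change in the CCE line.

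The RiboMinus libraries held between 920424 and 2473448 unique tags, and the Ribo-Zero libraries 28708715 tags in CCE and 48426051 in FH. The labelled tissues were checked on markers: all 8 neural genes, among them Stmn2, Tubb3 and Gap43, passed the test as higher in FH, although the calls of Sox2 and Nes were each lost in 7 of the alternatives and Sox2 was lower in FH with Ribo-Zero (RPKM 21.4 against 42.7). The test was a limma fit of FH against CCE, in which 20.0% of all 10304 genes tested were higher and 34.8% lower in FH. Of the 10 primitive endoderm genes tested, 9 were lower in FH, where Gata4 had 0 RiboMinus tags. Of these calls, those of Amn and Dab2 were lost in 6 and 5 of the alternatives. Libraries of the same preparation number did not always resemble each other across locations. Over 8940 genes, deviations were taken from the mean of the 6 FH RiboMinus libraries of both locations. Those of FH1h at Vienna-IMP correlated at 0.48 with FH2h and at 0.029 with FH1h at Nijmegen. The paper's supplement holds 1 FH RiboMinus lane to be most likely a technical outlier, by its tag composition. By the order of the lanes it is FH1h at Vienna-IMP. That library was kept here. The labels were kept as given, and the hydrolysed libraries are treated below as 1 group of 4.

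Haemoglobin is a tetramer of alpha-like and beta-like chains around haem. In the mouse the first red cells arise in the yolk sac, circulate as nucleated primitive erythroblasts and carry the embryonic chains of Hbb-y, Hbb-bh1 and Hba-x, while definitive red cells, made in the fetal liver and later in bone marrow, carry the adult chains of Hbb-b1, Hbb-b2, Hba-a1 and Hba-a2. Both kinds of cell are in the blood in mid gestation and reach every vascularised tissue, the head included. In mm9 the beta-like genes lie on the minus strand within chr7:110961038-111001754, in the order Hbb-y, Hbb-bh1, Hbb-b1, Hbb-b2 along transcription, and the alpha-like genes on the plus strand within chr11:32176400-32197301, in the order Hba-x, Hba-a1, Hba-a2. Slc4a1 lies at chr11:102210138-102227517 and Alas2 at chrX:146981918-147005181. In bulk RNA, fewer red cells and less RNA per cell cannot be told apart.

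The adult beta-like genes are near-identical copies, and this decided where a tag with a single place in the genome could lie. The first 75 bases of coding exon 2 are shown for the 4 beta-like genes because this exon is where the copies separate into those that can be read and those that cannot. The sequences are mm9, coding strand, from chr7:110976110-110976184 (Hbb-b1), chr7:110962101-110962175 (Hbb-b2), chr7:110991353-110991427 (Hbb-bh1) and chr7:111001410-111001484 (Hbb-y), and capitals mark bases that differ from Hbb-b1.
Hbb-b1: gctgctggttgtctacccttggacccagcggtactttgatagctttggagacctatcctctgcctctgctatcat
Hbb-b2: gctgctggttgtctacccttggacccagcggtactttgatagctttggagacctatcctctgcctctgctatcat
Hbb-bh1: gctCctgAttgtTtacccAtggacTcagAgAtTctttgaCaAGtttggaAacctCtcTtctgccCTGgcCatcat
Hbb-y: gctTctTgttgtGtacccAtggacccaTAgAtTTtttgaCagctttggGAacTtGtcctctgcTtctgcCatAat

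Over the 223 bases of coding exon 2, Hbb-b1 and Hbb-b2 had 0 differences, while Hbb-bh1 differed from Hbb-b1 at 54 bases and Hbb-y at 55. The merged exon 2 of Hbb-b1 that was counted is longer, 290 bases, and held 18 usable positions. Over the 441 coding bases Hbb-b1 and Hbb-b2 differed at 1, and Hbb-y and Hbb-b1 at 113. The embryonic beta-like genes can thus be counted along their whole length, and the adult pair only outside the shared stretch.

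The coding sequences of the adult alpha-like genes also differ at 1 base, of 426. A stretch of coding exon 3 is shown because it holds that base, C81T, counted from the first base of exon 3 with the base of Hba-a1 first. The sequences are mm9, chr11:32184308-32184378 (Hba-a1) and chr11:32197125-32197195 (Hba-a2), and the capital marks that base.
Hba-a1: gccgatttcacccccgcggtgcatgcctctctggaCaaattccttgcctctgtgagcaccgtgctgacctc
Hba-a2: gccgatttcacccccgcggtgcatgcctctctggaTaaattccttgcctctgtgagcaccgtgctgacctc

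Of the start positions of a 36 nt read inside single exons, those without another exact copy in the genome (here called usable) numbered 36 of 707 in Hba-a1 (5.09%) and 36 of 565 in Hba-a2 (6.37%), all of them reads that cover this base. The usable share was 50.7% in Hbb-b1 (384 of 758) and 45.7% in Hbb-b2 (273 of 598). In Hbb-y, Hbb-bh1, Hba-x, Alas2 and Slc4a1 it was 100.0%. Of 72593 FH tags in the 7 globin genes, 0 began at a position with another exact copy, as must hold in a file of tags with 1 place, and 8128 at a position with a copy within the mismatches that the alignment allowed (2 in 36 nt and 3 in 51 nt reads), among them every Hba-a1 tag. The FH embryos were FVB/N and the genome is that of another strain. The Hba-a1 and Hba-a2 tags are therefore split by the base the reference holds, and the copy they came from was not tested. The usable positions of Hbb-b1 and Hbb-b2, and the shares that use their tags, likewise rest on the bases of the reference.

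In the 6 FH RiboMinus libraries Hbb-b1 had 938 tags in exon 3, 410 in exon 1 and 0 in exon 2. Hbb-b2 had 357, 213 and 0 tags in the same exons, while Hbb-y had 3959 in exon 3, 1724 in exon 2 and 1027 in exon 1. All 103 tags of Hba-a1 lay in exon 3. An RPKM over the whole exon length is therefore a lower figure for the adult genes than for the embryonic ones at the same RNA level, and levels between genes are compared below both per kb of exon and per kb of usable positions.

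**Figure D1:**
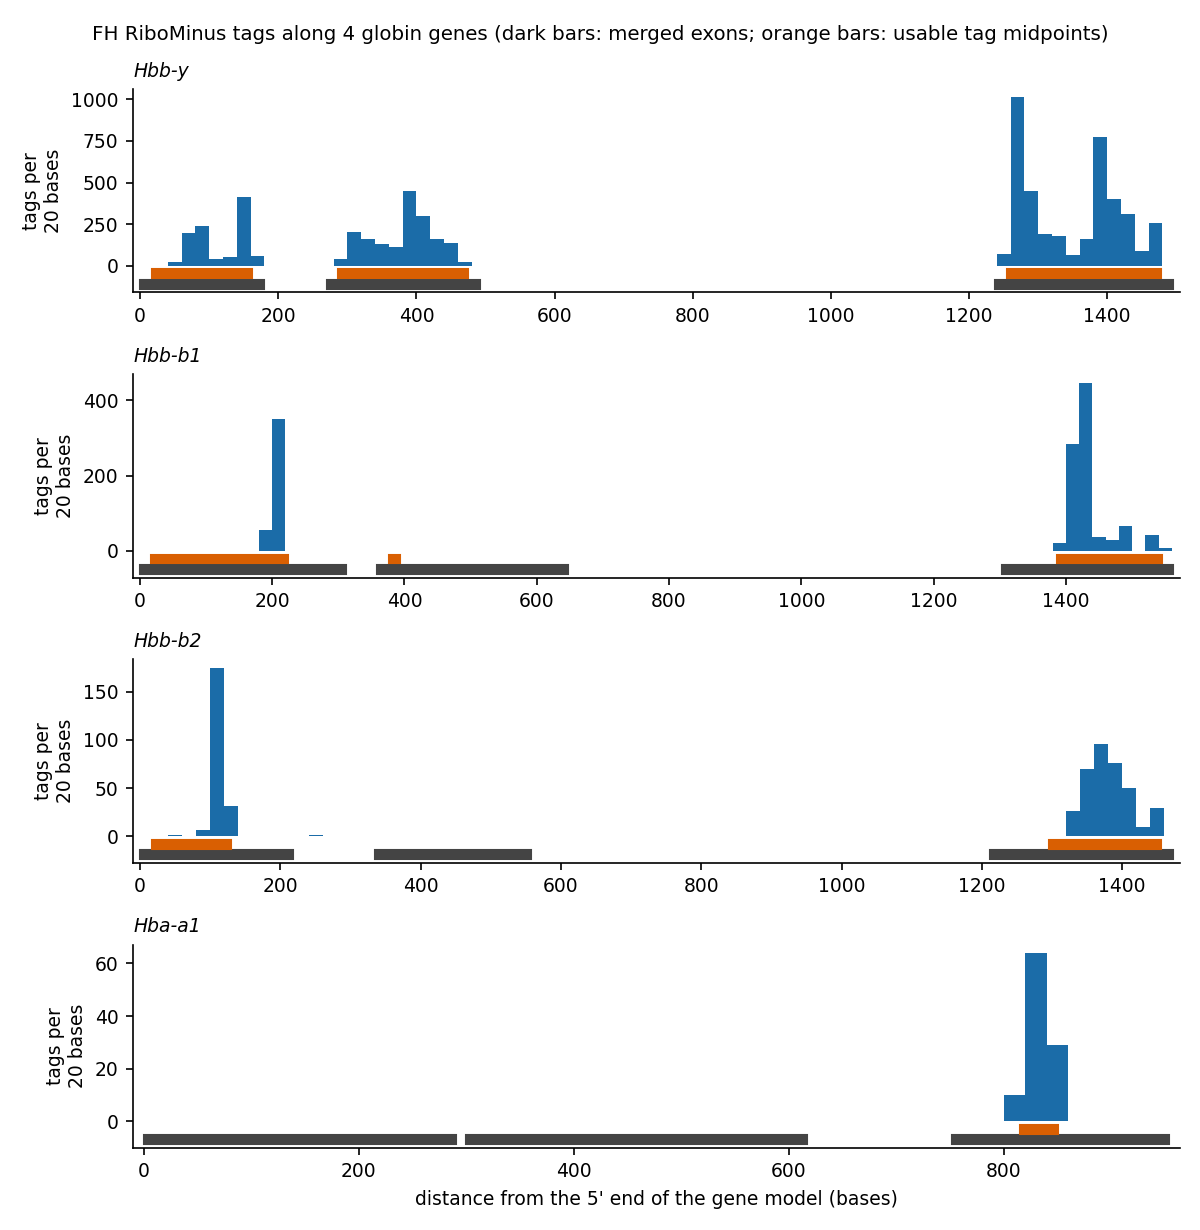
Tags of the 6 FH RiboMinus libraries along Hbb-y, Hbb-b1, Hbb-b2 and Hba-a1, in bins of 20 bases (y axis, tags) against the distance from the 5′ end of the gene model (x axis, bases). Dark bars are merged exons and orange bars the midpoints of reads at usable positions. Tags of Hbb-y fill all 3 exons, while those of Hbb-b1 and Hbb-b2 lie in exons 1 and 3 and those of Hba-a1 in a short stretch of exon 3.

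The 4 promoters shown next bear on the same question of what the gene models count. They are the 120 bases before the RefSeq start of each gene, taken from the RefSeq promoter table of GRCm38.p6 and found again in mm9 by exact match: chr7:111001722-111001841 (Hbb-y), chr7:110976443-110976562 (Hbb-b1, Hbb-bs in RefSeq), chr11:32176480-32176599 (Hba-x) and chr11:32196372-32196491 (Hba-a2). The Hba-a2 window had 2 exact places in mm9, and the place beside the Hba-a2 model is given. Capitals mark matches, searched on both strands, to CACCC (the letters of the site read by Klf1 and its relatives), to CCAAT (the box near many start sites), to GATAA or else GATAG (read by GATA factors), and to ATATAA or else CATAAA (forms of the TATA box).
Hbb-y: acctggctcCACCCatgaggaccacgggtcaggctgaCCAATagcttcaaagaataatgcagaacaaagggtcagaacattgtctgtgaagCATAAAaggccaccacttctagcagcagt
Hbb-b1: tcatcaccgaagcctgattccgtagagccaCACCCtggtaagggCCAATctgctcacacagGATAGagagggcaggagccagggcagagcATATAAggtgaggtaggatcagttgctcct
Hba-x: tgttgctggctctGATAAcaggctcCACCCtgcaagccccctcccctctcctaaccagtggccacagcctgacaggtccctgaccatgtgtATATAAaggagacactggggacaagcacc
Hba-a2: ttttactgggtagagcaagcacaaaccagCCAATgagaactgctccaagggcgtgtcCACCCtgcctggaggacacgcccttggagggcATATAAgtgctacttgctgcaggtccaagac

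The promoters of Hba-a1 and Hba-a2 were the same over 117 bases, at an offset of 3. Among the 7 genes with an entry, CACCC was in the windows of Hbb-y, Hbb-b1, Hbb-b2, Hba-x, Hba-a1, Hba-a2 and Alas2, and in 31.7% of 32851 windows of the same length. CCAAT was in Hbb-y, Hbb-b1, Hbb-b2, Hba-a1 and Hba-a2 and in 21.3% of all windows. ATATAA or else CATAAA was in the 6 globin windows and in 9.16% of all, and GATAA or else GATAG in Hbb-b1, Hba-x and Alas2 and in 18.8% of all. A match describes letters only. The GENCODE M1 first exons reach back into these windows, by 168 bases before the RefSeq start in Hbb-b1, 200 in Hba-x, 161 in Hba-a1 and 33 in Hbb-y. In the FH RiboMinus libraries that stretch held 2 tags in Hbb-b1 and 0 in Hba-x and Hbb-y, so that part of the exon length dividing their RPKM carried almost no tags. In Hba-a1 no usable position lies there, and no tag could be counted.

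The embryonic beta-like gene Hbb-y had the highest RPKM of the 9 genes in every FH library, where per kb of usable positions it was above Hbb-b1 in 5 of the 6 RiboMinus libraries. Its RPKM in the 6 FH RiboMinus libraries was 523 at the lowest, 909 at the median and 1400 at the highest, and 933 ± 356 over the preparations (SD, n = 3). In the 8 CCE RiboMinus libraries it lay between 0 and 1.99, with 7 tags in all against 6710 in FH. The groups did not overlap, and the pooled RPKM was 1260 times higher in FH (95% interval of the counts 611 to 3136). FH Ribo-Zero gave an RPKM of 1161 and CCE Ribo-Zero 0.0527.

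Hbb-bh1, the other embryonic beta-like gene, was among the lowest of the members although all of its positions could be read. FH values of this and the following genes are of RiboMinus libraries unless Ribo-Zero is named. The FH RPKM of Hbb-bh1 was 1.77, 7.18 and 8.15 at the lowest, median and highest library, and 6.45 ± 1.89 over preparations (SD, n = 3). CCE lay between 0 and 1.70, so the lowest FH library and the highest CCE library were almost level, and the pooled ratio of 11.0 (4.38 to 35.8) rested on 42 FH and 5 CCE tags. In the FH RiboMinus libraries Hbb-y thus stood at an RPKM of 523 or more where Hbb-bh1 stood at 8.15 or less. Both genes have 3 exons and a like number of usable positions (556 and 509).

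The adult beta-like genes followed Hbb-y. Hbb-b1 had an FH RPKM of 66.8, 166 and 337 (lowest, median, highest) and 179 ± 88.1 over preparations (SD, n = 3), with 1348 tags. CCE held 0 Hbb-b1 tags in 8 libraries, so that with a floor of 3 tags over the group FH was at least 591-fold higher. Hbb-b2 had an FH RPKM of 45.5, 74.3 and 117, and 75.2 ± 25.9 over preparations, against 1 tag in CCE (ratio 749, 134 to 29654). All 6 FH libraries lay above all 8 CCE libraries in both genes.

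Of the alpha-like genes, embryonic Hba-x could be read in full and had an FH RPKM of 20.0, 29.6 and 43.3, and 32.6 ± 4.59 over preparations (SD, n = 3). CCE lay between 0 and 1.72 with 8 tags, and FH was 51.6 times higher in pooled RPKM (25.9 to 121). Hba-a1 had an RPKM of 4.62, 9.72 and 25.6 in FH, from 103 tags, and 0 tags in CCE, which put FH at least 45.1-fold higher. Hba-a2 had 0 tags in all 14 RiboMinus libraries, and FH Ribo-Zero held 3 of its tags (RPKM 0.0925), so no fold is given. Hba-x had 4 merged exons in M1, and exons 3 and 4 held 117 and 141 of its 314 tags, against 51 in exon 1 and 5 in exon 2.

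Alas2 makes the erythroid form of the enzyme for the first step of haem synthesis. Its FH RPKM was 20.2, 30.2 and 45.2 (lowest, median, highest) and 31.8 ± 4.86 over preparations (SD, n = 3). It was the member with most CCE tags, 51, present in all 8 CCE libraries at an RPKM between 0.636 and 3.48, and the pooled ratio was 20.3 (15.3 to 27.5). Slc4a1, which makes the anion exchanger of the red cell membrane (band 3), had an FH RPKM of 4.99, 7.62 and 9.49, and 7.59 ± 1.08 over preparations, against 2 tags in CCE (ratio 242, 66.5 to 2005). The groups did not overlap in either gene. Of the 9 genes 8 passed the low-value filter, a mean RPKM over 3 in a tissue, and Hba-a2 did not. The 8 that passed did so through FH alone.

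**Figure D2:**
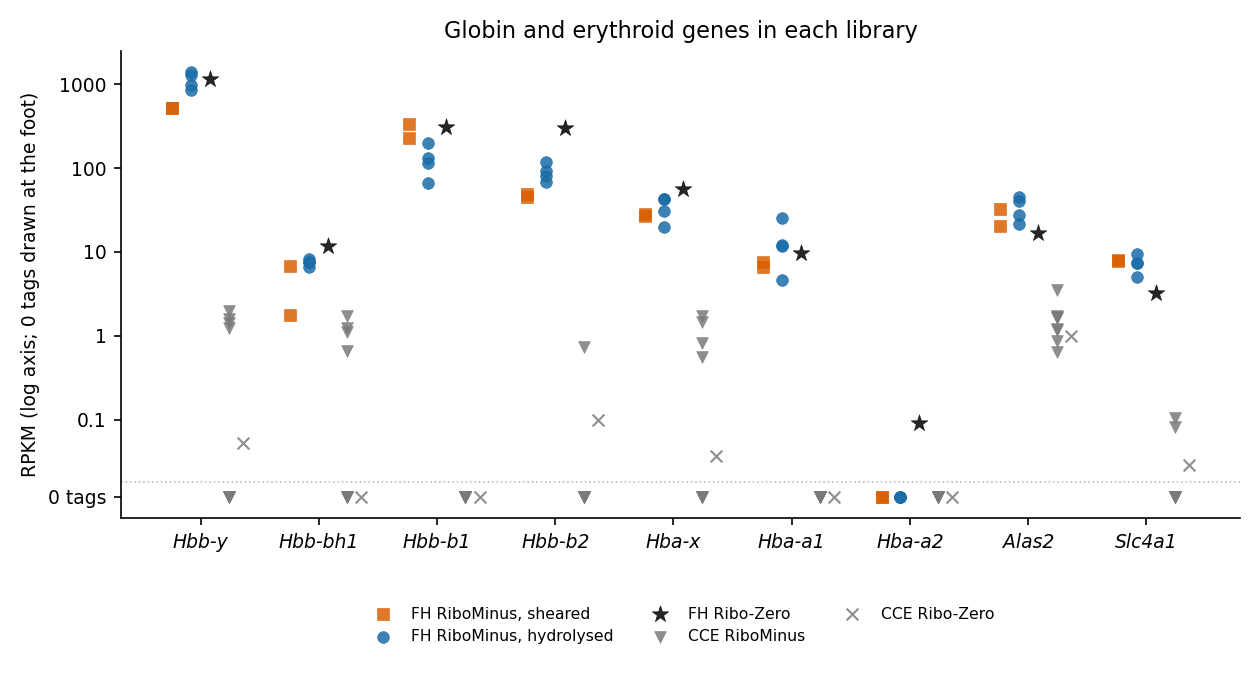
RPKM of the 9 genes (y axis, log scale, with libraries of 0 tags drawn at the foot) in each of the 16 libraries. Orange squares are sheared and blue circles hydrolysed FH RiboMinus libraries, stars FH Ribo-Zero, triangles CCE RiboMinus and crosses CCE Ribo-Zero. FH libraries lie above the CCE libraries for every gene with FH tags, closest in Hbb-bh1 (1.77 against 1.70), and Hba-a2 has 0 tags in all RiboMinus libraries.

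In the order of RPKM in FH, Hbb-y stood above Hbb-b1 and Hbb-b2 above Alas2 with no overlap of their 6 libraries. The other neighbours overlapped: Hbb-b1 was above Hbb-b2 in 5 of 6 libraries, Alas2 above Hba-x in 4, Hba-x above Hba-a1 in 6, Hba-a1 above Slc4a1 in 3 and Slc4a1 above Hbb-bh1 in 4. Per kb of usable positions the order changed in 1 respect, the place of Hba-a1. The medians were then 1075 tags per usable kb, on the scale of RPKM, for Hbb-y, 373 for Hbb-b1, 219 for Hba-a1, 190 for Hbb-b2, 33.2 for Hba-x, just under Alas2 (23.0 to 52.5 over the libraries), 8.79 for Slc4a1 and 8.66 for Hbb-bh1. On this scale Hbb-y, Hbb-b1, Hba-a1 and Hbb-b2 overlapped with their neighbours, and gaps lay between Hbb-b2 and Alas2 and between Hba-x and Slc4a1. The Hba-a1 figure rests on 36 positions and 103 tags, and ranged from 104 to 578 over the libraries.

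**Figure D3:**
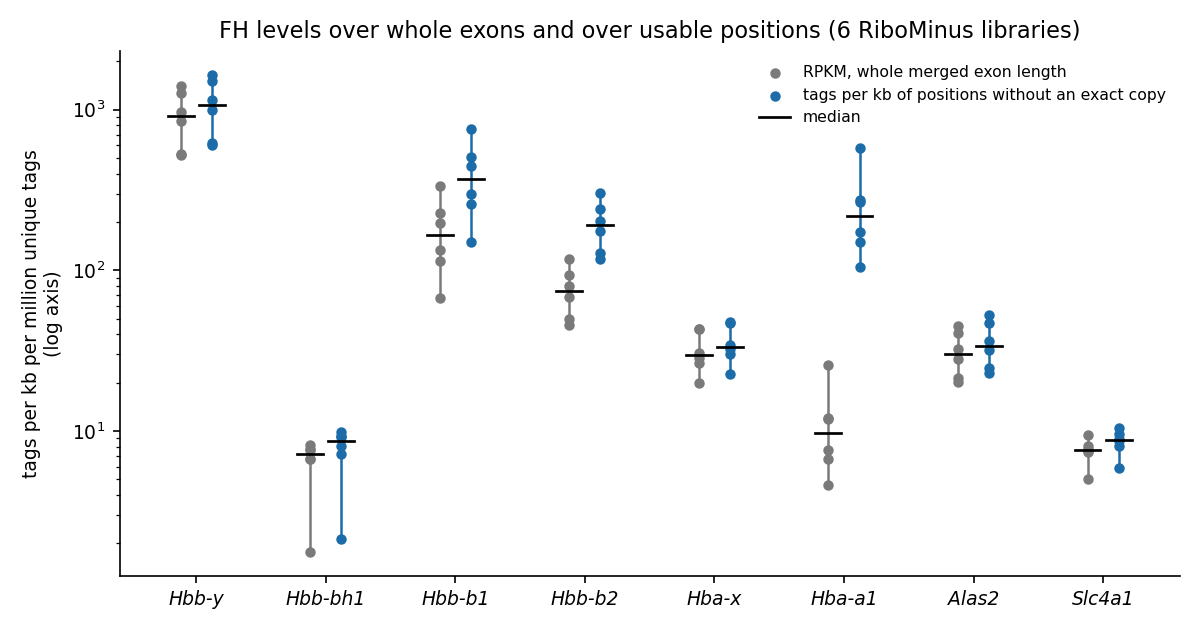
Levels of the 8 genes with FH RiboMinus tags (y axis, tags per kb scaled to the unique tags of the library as in RPKM, log scale), over whole merged exons (grey) and over usable positions (blue). Each point is 1 of 6 libraries and the black bar their median. The median of Hba-a1 moves from 9.72 to 219 and those of Hbb-b1 and Hbb-b2 to 373 and 190, while Hbb-y, Hbb-bh1, Hba-x, Alas2 and Slc4a1 keep nearly the same place.

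Within the adult beta-like pair, Hbb-b1 took 42.4% to 85.6% of the level per usable kb in the 6 FH RiboMinus libraries. The highest shares were those of the sheared libraries (81.3% at Vienna-IMP, 85.6% at Nijmegen). This split rests on the bases of the reference, and those of FVB/N were not tested. Among the alpha-like genes, Hba-x took 7.67% to 17.9% of the level per usable kb. Tags of the 7 globin genes made up 0.0613% to 0.108% of all unique tags in FH RiboMinus libraries and at most 0.000283% in CCE RiboMinus libraries. Tags at positions with an exact copy, which are most positions of Hba-a1 and Hba-a2, are missing from these figures. They do not measure the globin part of the RNA.

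The FH Ribo-Zero library came from other RNA, another kit and longer reads, so its values are set beside the RiboMinus ones with no test. Hbb-y (RPKM 1161), Hbb-b1 (310) and Hba-a1 (9.66) fell within the RiboMinus range. Hbb-b2 (298), Hba-x (55.9) and Hbb-bh1 (11.7) lay above all 6 RiboMinus libraries, and Alas2 (17.0) and Slc4a1 (3.24) below all 6. Per usable kb Hbb-b2 stood at 766 and Hbb-b1 at 696, so Hbb-b1 made up 47.6% of the pair, and Hba-x made up 30.1% of the alpha-like level. The Ribo-Zero tags of Hbb-y, Hbb-b1 and Hbb-b2 often shared a position. The 37166 tags of Hbb-y had 898 distinct combinations of start, end and strand (2.42%), against 62.6% over the whole library and 73.7% in Slc4a1. Hbb-y offers 511 start positions on each strand to a 51 nt read inside single exons, so this many tags must repeat. For Hbb-y the low share is thus no measure of an excess of copies. The 12936 tags of Hbb-b1 had 278 distinct combinations, with 1529 tags at 1 start and strand and 384 usable starts on each strand. The 10137 tags of Hbb-b2 had 269, with 767 tags at 1 start and strand and 273 usable starts on each strand. The part of repeated tags in the levels of these genes was not tested. In Hba-a1 172 of the 380 tags shared 1 start and strand.

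The question left free by the choice of the genes is how they behaved between libraries of the same tissue. The embryonic share of beta-like tags, Hbb-y and Hbb-bh1 out of all 4 genes, is a ratio within a library that the choice did not use. It was 60.9% in FH1s at Vienna-IMP (95% exact binomial interval 56.7 to 64.9) and 51.5% at Nijmegen (47.5 to 55.5). In the hydrolysed libraries it was 85.2% and 71.8% at Vienna-IMP (FH1h and FH2h) and 75.8% and 89.1% at Nijmegen. The 4 hydrolysed libraries lay above both sheared libraries, with means of 80.5% ± 8.05 (SD, n = 4 libraries of 2 cDNAs) and 56.2% ± 6.59 (SD, n = 2 libraries of 1 cDNA). The mean of both locations was 80.5% for FH1h, 80.4% for FH2h and 56.2% for FH1s. FH1h and FH1s, from the same depleted RNA, differed by 24.4 points in the Vienna-IMP libraries and 24.2 in those of Nijmegen, and FH2h and FH1s by 10.9 and 37.6. These values rest on the preparation numbers of the hydrolysed libraries, and with the numbers crossed at Vienna-IMP, a choice made after seeing the data, the means of the hydrolysed cDNAs were 87.1% and 73.8% and the Vienna-IMP differences of 24.4 and 10.9 changed places.

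The difference of 24.3 percentage points had p = 0.133 in an exact two-sided permutation test, the smallest value that 4 libraries against 2 can give. These libraries are repeat runs of 3 cDNAs, over which the smallest value is 0.667, and that was the exact permutation p. Per usable position the difference was 26.2 points (71.5% against 45.4%, exact permutation p = 0.133), and over positions without a near copy, within 2 mismatches, it was 16.5 points (72.2% against 55.7%, exact permutation p = 0.133). When each start, end and strand was counted once per library it was 1.23 points (75.6% against 74.3%, exact permutation p = 0.8) and the groups overlapped. A gene of 661 exon bases, as Hbb-y, offers a bounded number of starts, and in FH RiboMinus libraries between 20.7% and 70.1% of its tags were distinct. The part of repeated tags in the difference was not tested further. FH Ribo-Zero, which was hydrolysed, had a share of 61.9%, below the hydrolysed RiboMinus libraries.

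Between the locations the embryonic share was 72.6% ± 12.2 at Vienna-IMP and 72.1% ± 19.0 at Nijmegen (SD, n = 3 each), with an exact permutation p = 1.0 where 3 against 3 cannot go below 0.1. Paired by cDNA, the difference of Vienna-IMP minus Nijmegen was 9.32 points in FH1s, 9.43 in FH1h and -17.3 in FH2h, with an exact permutation p = 1.0 over sign changes, where 3 pairs cannot go below 0.25. With the hydrolysed numbers crossed the differences of those pairs were -3.88 and -3.99. The FH1s preparation was the lowest at both locations.

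**Figure D4:**
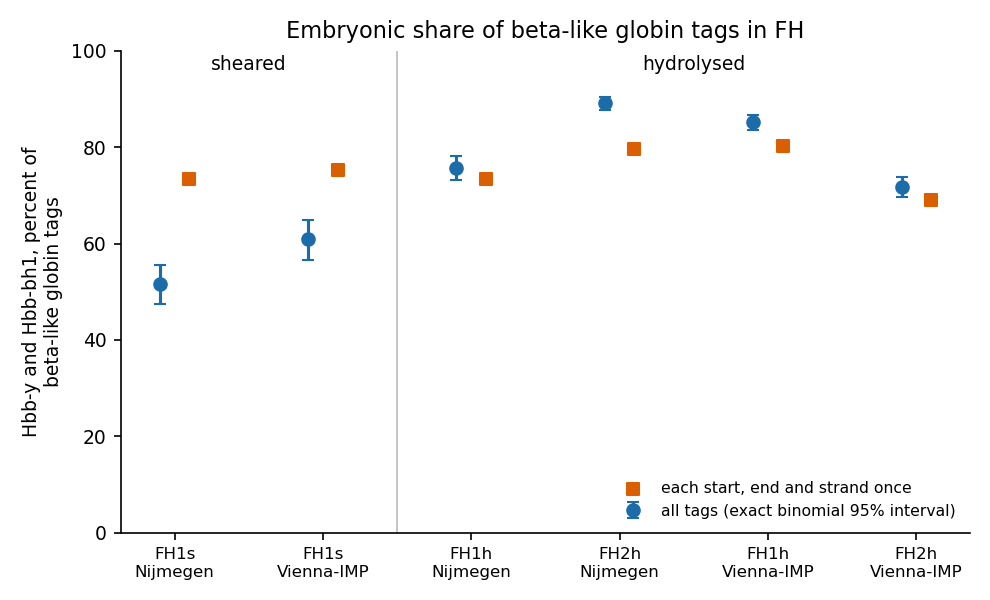
Percent of beta-like globin tags that belong to Hbb-y or Hbb-bh1 (y axis) in each of the 6 FH RiboMinus libraries (x axis, preparation and location). Blue circles count every tag, with exact binomial 95% intervals that cover counting error only, and orange squares count each start, end and strand once. Counting every tag, the 4 hydrolysed libraries (71.8% to 89.1%) lie above the 2 sheared ones (51.5% and 60.9%), while the orange squares of both groups overlap.

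The sheared group is 1 cDNA, FH1s, sequenced at both locations, so that the effect of shearing cannot be told apart from that of this 1 cDNA. The genes behind the share lay in opposite orders between the groups. Hbb-y had an RPKM of 1273 and 970 (Vienna-IMP) and 848 and 1400 (Nijmegen) in the hydrolysed libraries, against 528 and 523 in the sheared ones. Hbb-b2 had 68.6, 117, 93.5 and 80.0 against 45.5 and 49.5, and Hbb-b1 had 114, 199, 133 and 66.8 against 226 and 337. By RPKM, hydrolysed libraries were thus the higher ones for Hbb-y and Hbb-b2 and the lower ones for Hbb-b1. The groups did not overlap in these genes, but the share of all genes without overlap was not counted, so this is a description only. Over positions without a near copy Hbb-b1 stood at 252, 440, 276 and 143 tags per kb, scaled as in RPKM, against 437 and 345, so that the groups overlapped. In FH1s at Nijmegen 165 of the 268 Hbb-b1 tags lay at positions with a near copy.

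In limma fits with location as a covariate, the log2 difference of hydrolysed minus sheared libraries was 1.07 for Hbb-y (SE 0.40, adjusted p = 0.0733), 0.88 for Hbb-b2 (SE 0.36, adjusted p = 0.0942) and -1.20 for Hbb-b1 (SE 0.45, adjusted p = 0.0705). None of these passed the threshold of 0.05 after adjustment over the 8940 genes tested. Hbb-bh1 had 0.88 (SE 0.32, adjusted p = 0.0653), its sheared libraries holding 4 and 1 tags. Without FH1s at Nijmegen, the library with 1 tag, it fell to 0.082 (adjusted p = 0.920), and without FH1s at Vienna-IMP it was 1.68. The Hbb-b1 difference was -0.58 and -1.83 without the same libraries. Hba-a1 (0.63), Alas2 (0.33), Hba-x (0.24) and Slc4a1 (-0.12) had overlapping libraries and adjusted p-values from 0.250 to 0.775. By limma 0 of 8 members were called and 4 of 8 had an unadjusted p under 0.05, where 20.1% of all genes were called and 37.0% had an unadjusted p under 0.05.

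The calls changed when single libraries were left out. Without FH1h at Nijmegen 4 of 8 members were called (Hbb-y 1.22, Hbb-b2 0.84, Hba-a1 0.96 and Hbb-b1 -1.33, log2), where 26.7% of all genes were. Without FH1s at Vienna-IMP, FH1h at Vienna-IMP or FH2h at Vienna-IMP Hbb-bh1 alone of the members was called, where 19.6%, 18.4% and 18.1% of all genes were. Hbb-y and Hbb-b1 were called under median-ratio scaling (1.04 and -1.23), 2 of 8 members where 26.1% of all genes were called. Counting each start, end and strand once turned the Hbb-y difference to -0.41 and left Hbb-b1 at -0.98, which was then called, 1 of 8 members where 25.7% of all genes were called. The tags of Hbb-y also lay differently in the libraries: exon 3 held 58.3% and 43.1% of them in the sheared libraries and 62.8%, 68.2%, 46.5% and 57.4% in the hydrolysed ones, so the groups overlapped in this measure.

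Between Vienna-IMP and Nijmegen 0 of 8 members were called by limma and 1, Hba-a1, had an unadjusted p under 0.05 (log2 difference 0.79, SE 0.36, adjusted p = 0.999), where 0.0447% of 8940 genes were called and 4.23% had an unadjusted p under 0.05. The other members differed by -0.05 to 0.55 on the log2 scale, and the libraries of the locations overlapped in every member. With the cDNA preparation as a block the members called stayed at 0.

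Alas2 differed from the globin genes in its introns. In FH RiboMinus libraries its exons held 33.0 tags per kb on the scale of RPKM and its introns 0.908, from 787 and 188 tags. In CCE RiboMinus libraries the densities were 1.63 and 0.485, and in CCE Ribo-Zero 1.00 and 0.808, a ratio of 1.24. In FH Ribo-Zero they were 17.0 and 2.78. Exon density exceeded intron density in each of the 16 libraries, by 14.5 to 62.5 times in FH RiboMinus and by 1.58 to 17.4 times in CCE RiboMinus. The globin introns held 0 to 3 tags in each gene and group, and those of Slc4a1 5 tags in FH RiboMinus against 368 in its exons.

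The model of Apex2, a gene for an endonuclease of DNA repair on the opposite strand (chrX:146954062-147024411), spans Alas2. In it 1 exon overlaps Alas2 exon 11, which has 311 bases. Without strand, reads from the overlap cannot be told apart. Outside that exon the Alas2 RPKM was 31.1 in FH and 1.25 in CCE, against 33.0 and 1.63 with it. Apex2 had an RPKM of 3.68 in FH and 4.99 in CCE, from 319 and 569 tags, among which tags of the overlap can be counted. Alas2 exon 11 held 141 tags in FH and 17 in CCE. The Apex2 level without the overlap was not calculated, and the part of Apex2 transcripts in the CCE intron tags was not tested.

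**Figure D5:**
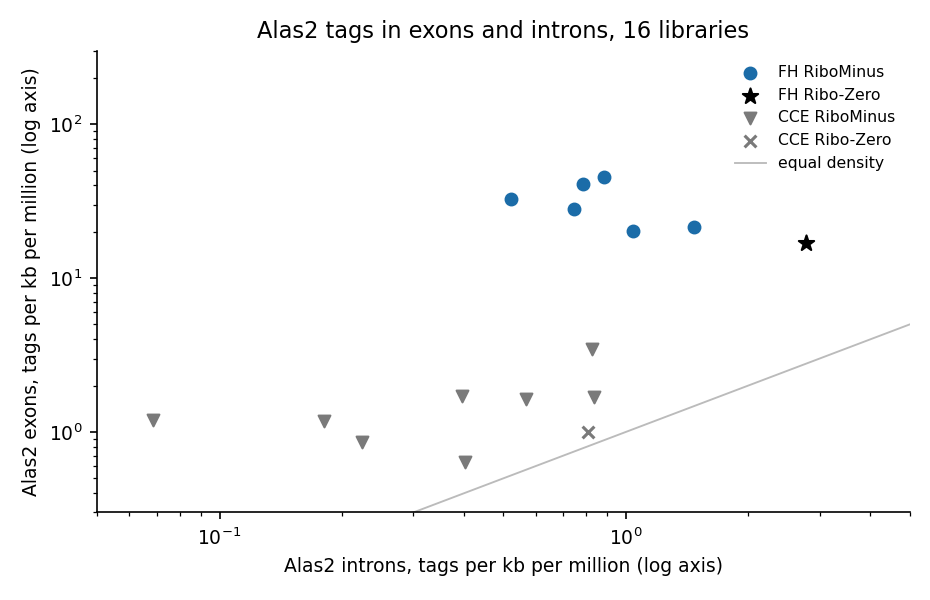
Alas2 tags per kb, scaled as in RPKM, in exons (y axis) against introns (x axis), both on log scales, in 16 libraries. Blue circles are FH RiboMinus, the star FH Ribo-Zero, triangles CCE RiboMinus, the cross CCE Ribo-Zero, and the grey line marks equal densities. FH libraries lie far above the line (exon density 17.0 to 45.2), and CCE Ribo-Zero is nearest to it with 1.00 against 0.808.

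Other genes of the red cell programme were called in both directions. In the limma fit of FH against CCE, 20.0% of all 10304 genes tested were higher and 34.8% lower in FH, and the median log2 difference over all genes was -0.34. The lists that follow were drawn up with earlier results of these data known, and their counts stand beside those shares. The RPKM ranges given for their genes are of RiboMinus libraries.

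Of the genes of haem synthesis and iron handling, 19 of 20 were tested, 1 was higher in FH and 9 were lower, with a median log2 difference of -0.61. Slc25a37, which carries iron into mitochondria, was higher (log2 0.56, SE 0.15, adjusted p = 0.0119), a call lost in 3 of the alternatives. The lower genes included Urod and Cpox, enzymes of the haem pathway shared by all cells (log2 -0.81 and -1.64), Tfrc, the transferrin receptor (-1.59), and Hmox1 and Slc40a1, which break down haem and export iron (-2.71 and -2.22). Tmem14c, Slc11a2 and Abcb10, transporters of haem precursors or iron, were also lower (-0.71, -0.61 and -0.84). Alas1, the form of the first enzyme used outside red cells, had a log2 difference of -0.26 and no call (adjusted p = 0.336). Under median-ratio scaling Tmem14c, Urod, Slc11a2 and Abcb10 were no longer called, and none of the 10 called genes of this list turned its direction in the alternatives run.

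Of 30 models of red cell membrane, skeleton and enzyme genes 11 were tested, 4 were higher and 2 lower in FH, with a median log2 difference of -0.02. Add2, a beta adducin of the spectrin skeleton, had an FH RPKM of 16.9 to 28.4 against 0.606 to 0.919 in CCE (log2 3.83, SE 0.15, adjusted p = 4.5e-07). By the paper FH is mainly fetal brain, and which cells held the Add2 transcripts was not tested. Aqp1, a water channel of the red cell and also of epithelia, had 16.0 to 29.0 against 0 to 0.524 (log2 4.15, SE 0.18, adjusted p = 6.1e-07). Bpgm, which makes the allosteric effector of haemoglobin, had a log2 difference of 1.15 and Epb4.9 of 0.57, and these calls were lost in 2 and 10 of the alternatives. With Ribo-Zero Epb4.9 had an RPKM of 2.27 in FH and 2.39 in CCE. Car2, a carbonic anhydrase, and Cat, catalase, were lower (-1.12 and -1.16).

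The erythroid transcription factor genes Klf1 and Gata1, by which the erythroid label was checked, were near the limit of detection in both tissues. They had 9 and 3 of the 9924914 tags of the FH RiboMinus libraries against 10 and 1 of 13049762 in CCE, did not reach the filter and were not tested.

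Of the erythroid regulators 17 of 24 were tested, 7 were higher and 3 lower in FH, with a median log2 difference of 0.29. Bcl11a, a repressor of embryonic and fetal globin genes that neurons also use, had an FH RPKM of 9.51 to 11.3 against 0.717 to 1.72 (log2 2.27, SE 0.16, adjusted p = 5.2e-06). Lmo2 (2.58), Lyl1 (2.31), Cbfa2t3 (2.11) and Tal1 (2.10), members of a blood and endothelial transcription complex, E2f2 (1.25), a cell cycle factor, and Kit (0.99), a growth factor receptor, were the other higher genes. With Ribo-Zero Kit was lower in FH (RPKM 4.16 against 6.44), and its call was lost in 1 alternative. Bach1 (-0.96), a haem-regulated repressor, Zfpm1 (-1.59), the partner of GATA factors, and Mafk (-0.69) were lower. The Zfpm1 call was lost in 5 of the alternatives, and that of Mafk, at an adjusted p = 0.0499, in 10. Among the 6 other globin genes only Cygb, cytoglobin, was tested, and it was higher in FH (log2 2.00, SE 0.20). Hbb-bh2 and Hbq1b, named after their values were seen, had 0 tags in all RiboMinus libraries.

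Of the markers of other blood and vessel cells that were tested, most were higher in FH. The sums of RPKM that follow are over RiboMinus libraries. FH Ribo-Zero lay below their FH range for endothelial, leukocyte and liver genes (83.1, 27.4 and 0.656) and within it for platelet genes (16.3). Summed over 12 endothelial genes the RPKM was 97.3 to 214 in FH and 19.7 to 38.3 in CCE, with 8 of 9 tested genes higher. Those with the highest FH RPKM were Cldn5 (log2 4.29), Cdh5 (3.87) and Egfl7 (1.34, the smallest difference of the 8, with Ribo-Zero RPKM of 8.76 in FH and 8.58 in CCE). Over 16 leukocyte genes it was 36.9 to 95.6 against 5.27 to 12.0, with 4 of 5 tested genes higher, C1qa (4.48), C1qb (4.42) and Cx3cr1 (2.36) having the highest FH RPKM, and Cd68 lower (-0.59), a call lost in 10 of the alternatives. Cd3e and Cd79a had 0 tags in FH RiboMinus libraries and Ptprc had 6. Over 9 platelet genes it was 12.9 to 29.4 against 2.11 to 3.94, with Gp1bb (2.90) and Pf4 (2.10) both higher of 2 tested. Over 7 liver genes it was 1.13 to 3.33 against 0.765 to 6.63, with the 1 tested gene, Apoa1, lower (-1.33). Apoa2 and Serpina1b had 0 tags in the FH RiboMinus libraries. The part of such cells in the levels of the 9 genes was not tested.

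The genes whose pattern was most like that of the 8 members with values were picked by Pearson's r of log2(RPKM + 1) with the members' mean, over 8932 candidate genes. Over all 16 libraries these were Hecw1 (0.997), Col6a3 (0.997), Grin2b (0.997), Reln (0.997) and Col9a1 (0.996), genes of neurons, connective tissue and cartilage that were at or near 0 in CCE. These 16 points are 7 FH and 9 CCE libraries that differ by tissue, which all such genes share. Over the 6 FH RiboMinus libraries they were Pip4k2b (0.992), Anapc16 (0.992), Renbp (0.991), 2310036O22Rik (0.990) and Gm6180 (0.988), and the points share cDNAs, fragmentation and location. In RiboMinus libraries Renbp had an RPKM of 3.49 to 8.53 in FH and 34.5 to 61.8 in CCE, and 2310036O22Rik 67.1 to 108 and 128 to 210. The tissues overlapped in Pip4k2b, Anapc16 and Gm6180. How high the best r of 8932 genes over 6 points comes by chance was not tested. No gene was in both sets of 5.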

How the data were processed

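The authors aligned high quality tags to mm9 with Bowtie (version not given in the sources used here), allowing 2 mismatches in 36 nt and 3 in 51 nt reads. Ribosomal tags were removed first, and in the RiboMinus samples also mitochondrial tags. In the Ribo-Zero libraries mitochondrial tags, 8.23% in CCE and 4.54% in FH, stayed in the totals that scale RPKM. Only tags with 1 place in the genome were deposited, as a start and an end per line. Splice junctions were not mapped. The score column deposited by the authors was constant and was not used. Samples that GEO lists as further lanes or as combined tags are not analysed here.

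From the 16 files, a tag was given, without strand, to the GENCODE M1 protein-coding gene whose merged exons held its midpoint, and RPKM was calculated over all unique tags of a library. The unit for tissues was the cDNA preparation, with both locations summed. All genes with a mean RPKM over 3 were fitted with limma 3.58.1 (R 4.3.3, trended variance, two-sided) on log2(RPKM + 1), which understates changes of low genes, with Benjamini-Hochberg adjustment over all genes tested and a threshold of 0.05. The scripts were tested on simulated data. Shares were compared with exact permutation tests over all splits or sign changes, computed with numpy. Intervals are exact at 95% (scipy 1.17.1) and cover counting error only, and a floor of 3 tags stood for 0. Usable positions were found by matching every 36-mer (51-mer) of the 9 genes to the genome. The other tools were Python 3.11.15, numpy 2.4.6, pandas 2.3.3, numba 0.67.0 and matplotlib 3.10.9.

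The 9 genes and all lists were chosen with earlier results of these data known. Named were all 9 genes, every gene of the red cell lists that passed the test, led by those with the highest FH RPKM, the 3 marker genes with the highest FH RPKM or markers at 0, and the 5 genes most alike. Ahsp was not analysed here. Some genes that the rule names are not reported here, though the counts of the lists include them. The numbers 1 and 2 were checked for pairing of the tissues: over 7396 genes same-numbered preparations of 1 fragmentation correlated at 0.53 to 0.70 in their deviations, but those of other numbers at 0.71 to 0.78, and the difference of the hydrolysed preparations 1 and 2 correlated at -0.18 between tissues, so the numbers were taken not to pair them. At the 2 locations the same cDNA was sequenced, as the methods state, and a block for it was an alternative. Other alternatives were another pseudocount (0.1), other filters, repeated positions counted once, median-ratio scaling, other covariates, single locations, hydrolysed preparations only, and each preparation or library left out.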

Additional observations from a re-analysis of the deposited data

Results flagged for a closer look

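In 4 of the 16 sets of libraries of a gene or share tested, 1 library stood apart from the others beyond Dixon's 95% critical value, and chance flags about 1 in 20 such sets. Hbb-bh1 in FH had its lowest RPKM, 1.77 from 1 tag, in FH1s at Nijmegen. Hba-a1 in FH had its highest RPKM, 25.6 from 44 tags, in FH1h at Vienna-IMP, while FH1h at Nijmegen had its lowest, 4.62. By lane order, FH1h at Vienna-IMP is the library that the paper holds to be a likely technical outlier. Alas2 in CCE had its highest RPKM, 3.48 from 16 tags, in the second hydrolysed preparation at Nijmegen. Hbb-b2 in CCE reached 0.738 in the library of the first sheared preparation at Vienna-IMP, from the only Hbb-b2 tag of the 8 libraries. A set with tags in only 1 library is always flagged by this rule.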

How the results depend on the processing

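For list genes called in FH against CCE, 943 of 1016 values over the alternatives kept direction and call, and 73 lost the call with no reversal. Genes with no call were not followed. With no filter on low values 3652 genes were higher in FH (2058 as reported) and 20 red cell list genes (13), and the fragmentation difference called 1015 genes. Under median-ratio scaling the split of higher and lower genes went from 2058 and 3583 to 2570 and 2600, the median from -0.34 to -0.10, and 8 red cell list genes were lower (14 as reported). It called 2 members and 2369 genes for fragmentation and 7 genes for location (0, 1796 and 4 as reported). Counting repeated positions once called 1 member and 2509 genes for fragmentation and 1 gene for location, as did no filter for the latter. It turned Hbb-y for fragmentation to -0.41 and Hba-x to -0.034, Hbb-b2 for location to 0.016, and the location difference of the embryonic share to -0.67 points, while positions without a near copy gave -4.23. Median-ratio scaling put Hbb-y for location at -0.0076.

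With a replicate block of cDNA 37 genes were called for location (3 with the hydrolysed numbers crossed). For fragmentation a block could be had from the FH1 libraries alone, which called 481 genes from fewer libraries, or 528 with the numbers crossed, where Alas2 was at -0.068. The embryonic share kept its differences with these blocks (24.3 points in the FH1 libraries, 0.48 between locations, also with the numbers crossed), which were added after seeing the data. The paired fit of the tissues gave 2513 higher and 4978 lower genes and lost no call of a list gene.

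Leaving out 1 library, fragmentation called 15 (without FH1s at Nijmegen) to 2389 genes and 0 to 4 members, location 0 (without FH1s at Vienna-IMP) to 57 genes, and the location difference of the share ran from -9.82 to 8.96 points. Log2 differences that changed sign ran for fragmentation from -0.10 to 0.57 in Hba-x, -0.13 to 0.79 in Alas2 and -0.29 to 0.057 in Slc4a1, and for location from -0.18 to 0.23 in Hbb-y, -0.15 to 0.67 in Hbb-b1, -0.24 to 0.20 in Hbb-b2, -0.39 to 0.26 in Alas2, -0.16 to 0.30 in Slc4a1 and -0.12 to 0.62 in Hbb-bh1. With 1 sheared library left it is assumed to vary like the others. The cause of these changes was not tested.

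Levels moved by more than the spread of preparations for Hbb-y (396), Hbb-b1 (64.4), Hbb-b2 (47.4) and Slc4a1 (8.95) with repeated positions counted once. Over positions without an exact copy, a choice made after seeing the data, Hbb-b1 was at 403, Hbb-b2 at 195 and Hba-a1 at 257. Positions without a copy within 2 mismatches gave 316 for Hbb-b1 and 227 for Hbb-b2, and none in Hba-a1 or Hba-a2, so no value there. Depth limits Hbb-bh1, Hba-a1 and every CCE value, which rest on few tags.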
